A study of Mus musculus with 16 samples.

Results

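The genes described here encode the enzymes and the chaperone that turn newly made collagen chains into secreted, trimmed procollagen. They were taken by name from the table of gene counts and number 10 of its 55573 genes. They are the catalytic subunits of prolyl 4-hydroxylase (P4ha1, P4ha2 and P4ha3), the lysyl hydroxylases (Plod1, Plod2 and Plod3), the collagen chaperone Hsp47 (Serpinh1), the procollagen C-proteinase (Bmp1) and its enhancers (Pcolce and Pcolce2). Expression was high enough for testing for 9 of the 10, and P4ha3 was not tested. RNA was measured in the apex of the heart of 16 male wild-type mice. On postnatal day 1 each pup had received an AAV9 vector driven by the cardiac troponin T (cTnT) promoter, which is active in cardiomyocytes. The vector carried either GFP, as the control, or Cardinal, a long noncoding RNA of the heart (Gm12295 in mouse). Each vector was studied after sham surgery and after transverse aortic constriction (TAC), in which a ligature narrows the aorta and the left ventricle pumps against a raised pressure. Hearts were collected 4 weeks after surgery, which gave sham and TAC groups of 4 mice each for AAV9-GFP and likewise for AAV9-Cardinal. The comparisons ask how pressure overload moved these genes under each vector and whether Cardinal altered that response.

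Fibrillar collagens are built in the endoplasmic reticulum from chains that are modified before they fold. Prolyl 4-hydroxylase makes the hydroxyproline that holds the triple helix together, and lysyl hydroxylases make the hydroxylysine that later carries sugars and crosslinks. Serpinh1 binds the folded helix and accompanies it toward the Golgi, and outside the cell Bmp1 removes the C-terminal propeptide so that fibrils can form, a step that Pcolce speeds up. In the heart most fibrillar collagen is made by fibroblasts, and its deposition after pressure overload is known as interstitial fibrosis.

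Each mouse contributed 16441997 to 21904589 counted reads. Levels are given as CPM, the counts of a gene scaled to a common library size, and 3 counts correspond to 0.126 to 0.195 CPM. The library of AAV9-Cardinal sham replicate 4 was the smallest. The vector's own gene, Gm12295, was at 3.42 to 7.24 CPM in the 8 AAV9-GFP hearts and at 18.3 to 93.9 CPM in the 8 AAV9-Cardinal hearts. A single heart, AAV9-Cardinal TAC replicate 1, stood apart in several measures used below. Its Gm12295 level was 93.9 CPM, against 18.3 to 20.6 CPM in the other 3 hearts of its group. The summed level of 6 markers of activated fibroblasts was 205 CPM in it and 97.3 to 103 CPM in the other 3, and that of 7 fibroblast markers was 571 CPM against 415 to 441 CPM. Values without this heart are given beside several of the results below, though not beside every result that it moves. Cardiomyocyte markers summed to between 32924 and 43727 CPM over the 16 hearts. Of the atrial genes listed, Sln and Myl7 were at 0 counts in 15 of the 16 hearts each, and Myl4 had group means of 0.885 to 1.25 CPM. Whether mice were littermates is not given in the sources used here, so p-values measure the spread between these mice.

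The promoters of 4 members are shown first because their transcripts rose and fell together from mouse to mouse, as described below. Promoter sequences were available for 8 of the 10 members, and those of Plod2 and Bmp1 were not used here. Each stretch holds the 250 bases before the transcription start in RefSeq (build GRCm38.p6), written 5′ to 3′ on the strand of the gene, and no annotated exon lies in it. P4ha1 lies on the plus strand at chr10:59323046-59323295, P4ha2 on the plus strand at chr11:54100674-54100923, Plod1 on the minus strand at chr4:147936777-147937026 and Serpinh1 on the minus strand at chr7:99353240-99353489. The GENCODE M21 annotation places the start of P4ha2 at chr11:54100095, so its window lies inside the gene as annotated there. Capitals mark the letters ACGTG or GCGTG on either strand, the core that hypoxia-inducible factors are known to bind.
P4ha1: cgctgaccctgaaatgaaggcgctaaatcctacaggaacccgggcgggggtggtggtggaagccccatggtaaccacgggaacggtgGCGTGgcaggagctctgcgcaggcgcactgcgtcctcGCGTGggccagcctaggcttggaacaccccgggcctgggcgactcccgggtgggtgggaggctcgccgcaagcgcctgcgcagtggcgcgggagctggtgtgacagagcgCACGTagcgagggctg
P4ha2: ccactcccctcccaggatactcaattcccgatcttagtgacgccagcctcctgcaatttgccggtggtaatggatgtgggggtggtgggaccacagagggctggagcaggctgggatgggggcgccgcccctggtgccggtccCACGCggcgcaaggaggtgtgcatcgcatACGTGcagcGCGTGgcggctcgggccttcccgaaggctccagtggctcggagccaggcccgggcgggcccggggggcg
Plod1: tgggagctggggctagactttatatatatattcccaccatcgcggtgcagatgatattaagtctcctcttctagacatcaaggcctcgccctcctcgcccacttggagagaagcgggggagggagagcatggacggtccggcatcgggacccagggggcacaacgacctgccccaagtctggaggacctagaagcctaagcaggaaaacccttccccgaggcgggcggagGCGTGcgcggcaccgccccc
Serpinh1: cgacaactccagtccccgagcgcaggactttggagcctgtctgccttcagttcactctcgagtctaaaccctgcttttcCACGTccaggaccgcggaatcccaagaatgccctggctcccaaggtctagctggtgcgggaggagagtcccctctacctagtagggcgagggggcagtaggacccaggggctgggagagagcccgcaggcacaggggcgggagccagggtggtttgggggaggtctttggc
The letters ACGTG occurred once each in the windows of P4ha1, P4ha2 and Serpinh1 and not in that of Plod1. They occurred in 16.6% of all 32851 mouse promoter windows of this length, both strands searched. The letters GCGTG occurred in 2 places each in P4ha1 and P4ha2 and in 1 place in Plod1, and in 28.2% of all windows. Among the members not shown, the window of Plod3 held ACGTG in 1 place and GCGTG in 3. That of Pcolce held GCGTG in 1 place, and annotated exons lie in both windows. Those of P4ha3 and Pcolce2 held neither. The 4 windows shown were 61.6 to 70% G and C, and the shares over all windows were not matched for this. Heat shock factors are known to bind inverted repeats of GAA. The letters TTCNNGAA were found in the window of P4ha2 and in 7.17% of all windows, and GAANNTTC in none of the 8 member windows and in 6.69% of all windows. A match of letters describes the sequence and does not show that a factor binds there.

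Per kilobase of exon, the most abundant member transcript was Serpinh1, with a mean of 63.1 CPM per kb (SD 15.8, n = 16 mice). P4ha1 followed at 14.9 ± 4.50 CPM per kb, Plod1 at 11.0 ± 1.42, Pcolce at 8.40 ± 2.06, P4ha2 at 7.62 ± 1.22, Plod2 at 6.22 ± 0.859, Plod3 at 5.15 ± 0.876, Bmp1 at 3.62 ± 0.428 and Pcolce2 at 2.53 ± 0.486 (means ± SD of all 16 mice). Serpinh1 was above every other member in every heart. From P4ha1 down to Plod3, each gene and the next in this order differed by less than the sum of their SDs. Plod3 and Bmp1, and Bmp1 and Pcolce2, differed by more. These SDs leave out that all genes were measured in the same hearts. P4ha2 was above Plod2 in every heart, most narrowly in AAV9-GFP sham replicate 1 (6.16 and 6.10 CPM per kb). The other neighbours from P4ha1 down to Plod3 did not keep their order in every heart. P4ha3 was at 0 counts in 14 of the 16 hearts. The other two, AAV9-GFP TAC replicates 3 and 7, had 7 and 4 counts.

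After TAC under the GFP vector, 3 of the 9 tested members rose, while the prolyl hydroxylase subunits and the chaperone did not pass the test. The members that rose were Pcolce (GRCm38 chr5:137605103-137613784, minus strand), Plod3 (chr5:136987019-136996648, plus strand) and Bmp1 (chr14:70474558-70520234, minus strand), all annotated as protein-coding. Over all 16857 genes tested, 17.4% passed in either direction and 8.49% passed as higher (edgeR quasi-likelihood test, Benjamini-Hochberg adjusted p under 0.05, here and below unless another test is named). The median log2 fold change was 0.11 over the 9 members and 0.01 over all genes tested. The members' changes were small beside those of their substrate. Col1a1, Col1a2, Col3a1, Col5a1 and Col5a2, which encode chains of the fibrillar collagens, all rose, by log2 fold changes of 1.04 to 1.52 with adjusted p between 1.7e-05 and 0.0028.

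Pcolce, the enhancer of the C-proteinase, had the largest rise. It was at 25.2, 26.5, 27.1 and 29.1 CPM in the 4 AAV9-GFP sham hearts and at 42.0, 46.4, 40.3 and 44.2 CPM in the 4 AAV9-GFP TAC hearts. Every TAC heart lay above every sham heart. The log2 fold change was 0.68 (SE 0.10, adjusted p = 0.00048), from a mean of 27.0 ± 1.63 to 43.3 ± 2.65 CPM (SD, n = 4 each). Pcolce2, its paralogue, was at 9.58 to 11.6 CPM in sham hearts and 12.6 to 15.2 CPM in TAC hearts, again without overlap, and its log2 fold change of 0.42 (SE 0.15) had an adjusted p of 0.0725. With only the 8 mice compared, the adjusted p of Pcolce2 was 0.0129. Without AAV9-Cardinal TAC replicate 1 or 4, hearts that enter this contrast only through the shared estimate of spread, it was 0.017 and 0.0458.

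Bmp1, the proteinase itself, was at 28.2, 30.8, 31.0 and 31.8 CPM in sham hearts and at 36.2, 40.4, 36.0 and 36.6 CPM in TAC hearts under the GFP vector. The groups did not overlap, and the log2 fold change was 0.29 (SE 0.06, adjusted p = 0.0052). Of the 9 tested members, 3 had groups without overlap in this comparison, namely Pcolce, Pcolce2 and Bmp1, all higher in TAC. The share over all genes tested was 20.3% in either direction.

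Plod3, the lysyl hydroxylase that also transfers glucose and galactose to hydroxylysine, was at 19.4, 20.3, 20.04 and 22.8 CPM in sham hearts. In TAC hearts it was at 22.8, 27.8, 23.7 and 33.8 CPM. The highest sham and the lowest TAC heart were level at 22.8 CPM, and the other 3 TAC hearts lay above all sham hearts. The log2 fold change was 0.39 (SE 0.10, adjusted p = 0.012), and with only the 8 mice compared the adjusted p was 0.0685. Plod3 shares 11.9% of its exon bases with other genes, nearly all with Znhit1 on the opposite strand, and the use of strand in counting is not stated. Znhit1 was at 19.6 ± 1.32 CPM in sham and 20.1 ± 1.83 CPM in TAC hearts (log2 fold change 0.04, adjusted p = 0.79). Plod1 had a log2 fold change of 0.03 (SE 0.12, adjusted p = 0.89) and Plod2, the lysyl hydroxylase of the telopeptides, one of −0.20 (SE 0.13, adjusted p = 0.33).

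The prolyl 4-hydroxylase subunits did not pass the test under the GFP vector. P4ha1 was at 36.9, 50.6, 57.7 and 93.4 CPM in sham hearts and at 49.4, 61.8, 51.2 and 68.8 CPM in TAC hearts. The TAC hearts lay inside the range of the sham hearts, and the log2 fold change was −0.04 (SE 0.27, adjusted p = 0.94). P4ha2 went from 50.6 ± 9.05 to 42.9 ± 3.65 CPM (log2 fold change −0.24, SE 0.14, adjusted p = 0.30). Serpinh1 was at 105, 126, 142 and 223 CPM in sham hearts and at 140.5, 169, 145 and 189 CPM in TAC hearts. Again the sham hearts spanned the TAC hearts, and the log2 fold change was 0.11 (SE 0.20, adjusted p = 0.78).

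**Figure D1:**
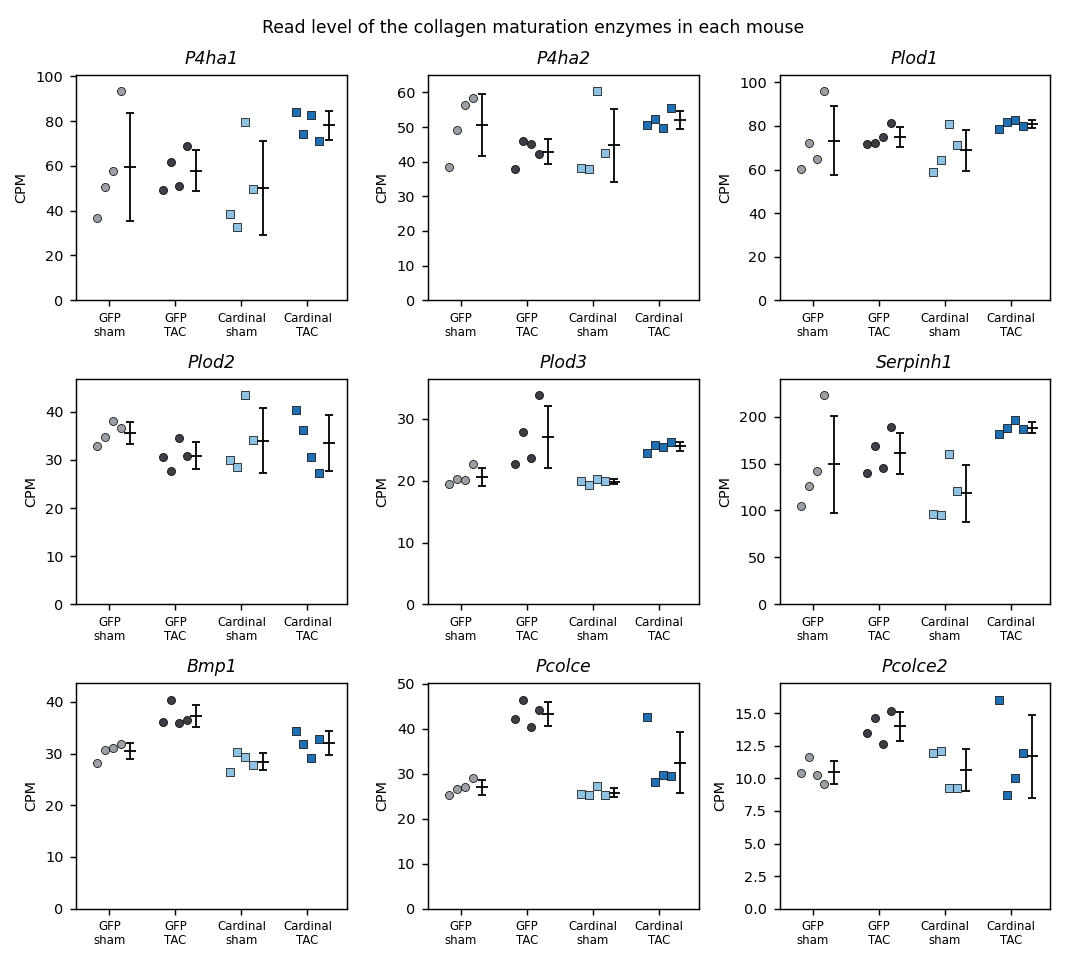
Level of 9 members in CPM (vertical axes, from 0) in each of the 16 mice, by group on the horizontal axes. Each point is a mouse and the bar beside each group gives the mean ± SD of 4 mice. Pcolce, Pcolce2 and Bmp1 are higher in every AAV9-GFP TAC heart than in every AAV9-GFP sham heart, whereas P4ha1 and Serpinh1 spread widely among sham hearts.

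Under the Cardinal vector, TAC moved a single member past the test, Plod3, against 6.48% of all genes tested in either direction and 3.1% as higher. Plod3 was at 19.97, 19.3, 20.2 and 19.98 CPM in AAV9-Cardinal sham hearts and at 24.5, 25.8, 25.5 and 26.3 CPM in AAV9-Cardinal TAC hearts. Both groups were tight and did not overlap. The log2 fold change was 0.36 (SE 0.10, adjusted p = 0.041), close to the 0.39 found under the GFP vector, and the difference between the 2 responses was −0.03 (SE 0.14, adjusted p = 0.97). The call lay close to the threshold. It was lost without AAV9-Cardinal TAC replicate 4, 5 or 6 (adjusted p = 0.079, 0.096 and 0.099), without any of the AAV9-Cardinal sham hearts (adjusted p = 0.067 to 0.11) and without AAV9-GFP sham replicate 2 or 3 (adjusted p = 0.055 and 0.054), while the log2 fold change stayed between 0.35 and 0.37 in those fits.

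Serpinh1 was at 96.2, 95.1, 161 and 121 CPM in AAV9-Cardinal sham hearts and at 182, 188, 196 and 187 CPM in AAV9-Cardinal TAC hearts. All TAC hearts lay above all sham hearts and within a narrow range. The log2 fold change of 0.67 (SE 0.20) had an adjusted p of 0.059. It passed with DESeq2 (adjusted p = 0.013), with only the 8 mice compared (0.035) and without AAV9-Cardinal sham replicate 3 (0.027), AAV9-GFP sham replicate 1 (0.044) or AAV9-GFP sham replicate 4 (0.019).

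P4ha1 had a like pattern, with 38.3, 32.5, 79.8 and 49.5 CPM in AAV9-Cardinal sham hearts and 84.3, 74.1, 82.6 and 71.3 CPM in AAV9-Cardinal TAC hearts. Only sham replicate 3 reached the range of the TAC hearts. The log2 fold change was 0.64 (SE 0.27, adjusted p = 0.17), and without that sham heart it was 0.96 (adjusted p = 0.0396). P4ha2, Plod1 and Plod2 had log2 fold changes of 0.22, 0.23 and −0.02, with adjusted p between 0.28 and 0.96.

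Pcolce under the Cardinal vector was at 25.4, 25.2, 27.3 and 25.2 CPM in sham hearts and at 42.5, 28.1, 29.8 and 29.4 CPM in TAC hearts. Replicate 1 alone reached the level of the AAV9-GFP TAC hearts, and the other 3 lay just above the sham hearts. The log2 fold change was 0.33 (SE 0.11, adjusted p = 0.077). It was 0.18 (adjusted p = 0.098) without replicate 1, the heart of its group with the highest fibroblast markers. With DESeq2 and all hearts the adjusted p of Pcolce was 0.038. Bmp1 had a log2 fold change of 0.17 (SE 0.06, adjusted p = 0.125) and Pcolce2 one of 0.13 (SE 0.15, adjusted p = 0.69), which was −0.06 without replicate 1. Groups without overlap numbered 3 of 9 members (Plod3, Serpinh1 and Pcolce, all higher in TAC), against 13.7% of all genes tested in either direction. The substrate genes had log2 fold changes of 0.47 to 0.91 here, and of the 5 only Col5a2 passed (adjusted p = 0.0042). The summed level of Col1a1, Col1a2 and Col3a1 was 465 CPM in replicate 1 and 182 to 212 CPM in the other 3 TAC hearts, against 158 to 182 CPM in the sham hearts. Without replicate 1 the 5 log2 fold changes were 0.25 to 0.69, and Col5a2 again passed (0.69, adjusted p = 0.0016). The number of cells of a type and the RNA per cell cannot be told apart in RNA of whole tissue.

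**Figure D2:**
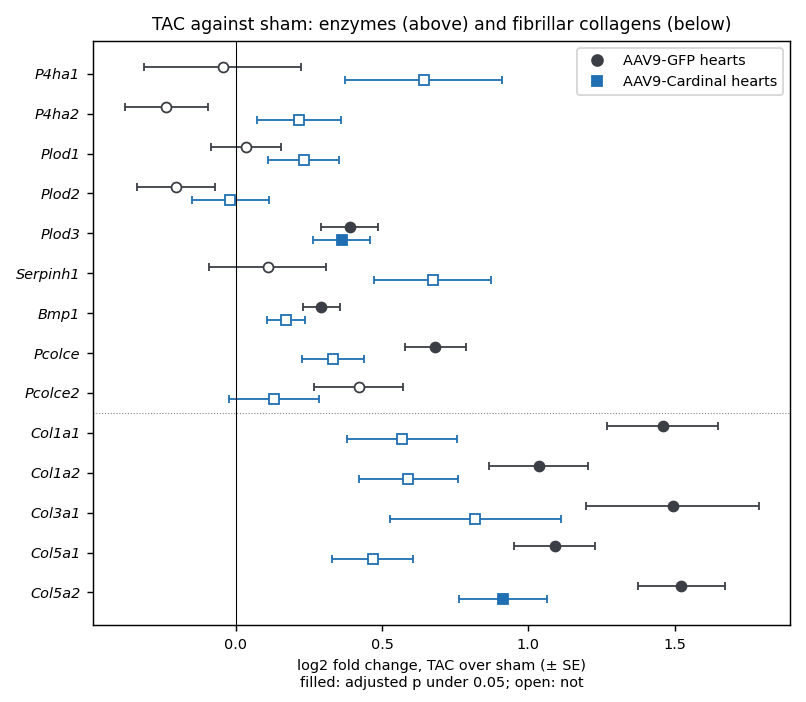
Log2 fold change of TAC over sham (horizontal axis, ± SE) for 9 members and 5 fibrillar collagen genes, in AAV9-GFP hearts (circles) and AAV9-Cardinal hearts (squares), with 4 mice in each group. Filled symbols passed an adjusted p under 0.05. Under the GFP vector the collagen genes rose by more than 1 on the log2 scale and no enzyme rose by more than 0.68.

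With the 2 vectors compared directly, no member passed in TAC hearts by edgeR, and 0.101% of all genes tested did. At an unadjusted p under 0.05 there were 2, Pcolce and Bmp1, and both passed with DESeq2 (adjusted p = 0.011 and 0.039). DESeq2 called 447 genes in all in this comparison, against 17 with edgeR. Here and below, counts at an unadjusted p are given without the share over all genes tested and are not read as an excess. Pcolce was lower under Cardinal by a log2 fold change of −0.42 (SE 0.10, adjusted p = 0.096). The 3 hearts other than replicate 1 were at 28.1 to 29.8 CPM, below the 40.3 to 46.4 CPM of the AAV9-GFP TAC hearts. Without replicate 1 the log2 fold change was −0.57 (adjusted p = 0.00032). Of the 16 fits that each left out 1 mouse, this was the 1 under 0.05, and the highest adjusted p was 0.32. Replicate 1 had been singled out partly by its own Pcolce level, so this p-value is no separate support for a difference. Bmp1 was at 34.5, 31.8, 29.1 and 32.9 CPM in AAV9-Cardinal TAC hearts, all below the lowest AAV9-GFP TAC heart at 36.0 CPM. Its log2 fold change was −0.22 (SE 0.06, adjusted p = 0.127). P4ha1 was higher in all 4 AAV9-Cardinal TAC hearts, at 71.3 CPM or more, than in all AAV9-GFP TAC hearts, at 68.8 CPM or less, with a log2 fold change of 0.43 (SE 0.27, adjusted p = 0.48). P4ha2 had groups without overlap in the same direction (0.28, SE 0.14, adjusted p = 0.38). In all, 3 of 9 members had groups without overlap, against 6.77% of all genes tested. The other members tested had log2 fold changes of −0.26 (Pcolce2) to 0.23 (Serpinh1).

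In sham hearts no member passed with edgeR or with DESeq2, none had an unadjusted p under 0.05, and the share of all genes tested that passed with edgeR was 0.0119%. Log2 fold changes of Cardinal over GFP lay between −0.33 (Serpinh1) and 0.03 (Pcolce2), with a median of −0.09, and no member had groups without overlap, against 2.36% of all genes tested. Gm12295, which the Cardinal vector carries, did not pass with edgeR in sham hearts either (31.0 against 4.77 CPM, log2 fold change 2.70, adjusted p = 0.35). It passed in TAC hearts (2.96, adjusted p = 0.039). A gene without a call between the vectors may therefore still differ. The difference in the TAC response between vectors was not past the test for any member by edgeR or by DESeq2, and for 0.0119% of all genes tested by edgeR. At an unadjusted p under 0.05 there were 2, P4ha2 (0.45, SE 0.20) and Pcolce (−0.35, SE 0.15), with adjusted p of 0.46 and 0.44. P4ha1 had the largest difference, 0.69 (SE 0.38, adjusted p = 0.555), and Serpinh1 one of 0.56 (SE 0.28, adjusted p = 0.51). Without AAV9-Cardinal TAC replicate 1, the difference for Pcolce was −0.51 with an adjusted p of 0.026. This too was the 1 of 16 such fits under 0.05, and the highest adjusted p was 0.69.

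How members varied together over the 16 mice is given here as Pearson correlations of log2 CPM without a test, since all genes of a mouse share its library. P4ha1 and Serpinh1 had r = 0.95, P4ha1 and Plod1 0.89, Serpinh1 and Plod1 0.91, and P4ha1 and P4ha2 0.80. After each group's mean was taken away, these were 0.97, 0.86, 0.92 and 0.84. P4ha2 had r = 0.70 with Serpinh1 and 0.65 with Plod1, and 0.81 and 0.68 around the group means. Pcolce and Bmp1 had r = 0.91 and Pcolce and Pcolce2 0.78, which were 0.59 and 0.64 around the group means. P4ha1 and Pcolce had r = 0.32, and 0.44 around the group means. P4ha2 and Bmp1 had 0.05, and 0.47 around the group means, whereas Pcolce2 and Bmp1 had 0.67 and 0.37. Plod3 had r = 0.72 with both Serpinh1 and Pcolce, which was 0.60 and 0.15 around the group means.

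The spread within groups differed from member to member. The coefficient of variation of P4ha1 was 40.4% in AAV9-GFP sham and 42.1% in AAV9-Cardinal sham hearts, and 15.8% and 8.13% in the respective TAC hearts. For Serpinh1 it was 34.4% and 26.0% in sham and 13.8% and 3.09% in TAC hearts. Among sham hearts, AAV9-GFP replicate 4 and AAV9-Cardinal replicate 3 held the highest P4ha1, P4ha2, Plod1 and Serpinh1 levels of their groups. Pcolce had 6.05% and 3.94% in sham hearts, and its widest group was AAV9-Cardinal TAC with 20.8%. In AAV9-Cardinal hearts Pcolce2 had 14.9% in sham and 27.3% in TAC, and Plod1 13.6% and 2.19%.

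The genes outside the members whose log2 CPM was most like each member over the 16 mice were the following. For P4ha1 they were Hsp90aa1, a heat shock chaperone (r = 0.971), and Gm5844 (0.970), a processed pseudogene that shares 59.4% of its 50-base stretches with other transcripts, Hsp90aa1 first among them. For Serpinh1 they were Hspa1l, a chaperone of the Hsp70 family (0.978), and Hsp25-ps1 (0.949), a pseudogene that shares 87.6% of its stretches, most with the small heat shock gene Hspb1. Hspa1l shares 71.4% of its stretches with Hspa1a, Hspa1b and Gm10501, and Hsp90aa1 47.5% with its pseudogenes, so that reads may have been divided among them. For P4ha2 the nearest were E2f6 (0.929) and Tmem33 (0.926), and for Plod1 Atxn2 (0.936) and the chaperonin subunit Cct3 (0.925).

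Hsp90aa1 ranged from 52.9 to 218 CPM in AAV9-GFP sham hearts, from 66.6 to 129 in AAV9-GFP TAC hearts, from 46.9 to 184 in sham hearts under Cardinal and from 149 to 202 in TAC hearts under Cardinal. Its log2 fold change for TAC was −0.28 (adjusted p = 0.72) under GFP and 0.92 (adjusted p = 0.23) under Cardinal. It was highest in AAV9-GFP sham replicate 4 and AAV9-Cardinal sham replicate 3 among the hearts of their groups, as P4ha1 and Serpinh1 were, and what this had to do with their values was not tested.

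Pcolce was closest to Col6a2 and Col6a1 (both r = 0.981), which encode chains of the microfibrillar collagen VI. Bmp1 was closest to Col15a1 (0.912), a collagen gene, and Zfp651 (0.909). Plod3 was closest to Calhm5 (0.944) and to Lox (0.941), the lysyl oxidase that starts collagen crosslinking. Col6a2 rose after TAC by 1.02 under GFP (adjusted p = 9.05e-05) and 0.53 under Cardinal (adjusted p = 0.024), and by 0.36 under Cardinal without replicate 1 of the TAC hearts (adjusted p = 0.025). For Plod2 the nearest were Znfx1 (0.862) and Naa16 (0.849), and for Pcolce2 Shisa4 (0.892) and Kif3b (0.889).

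**Figure D3:**
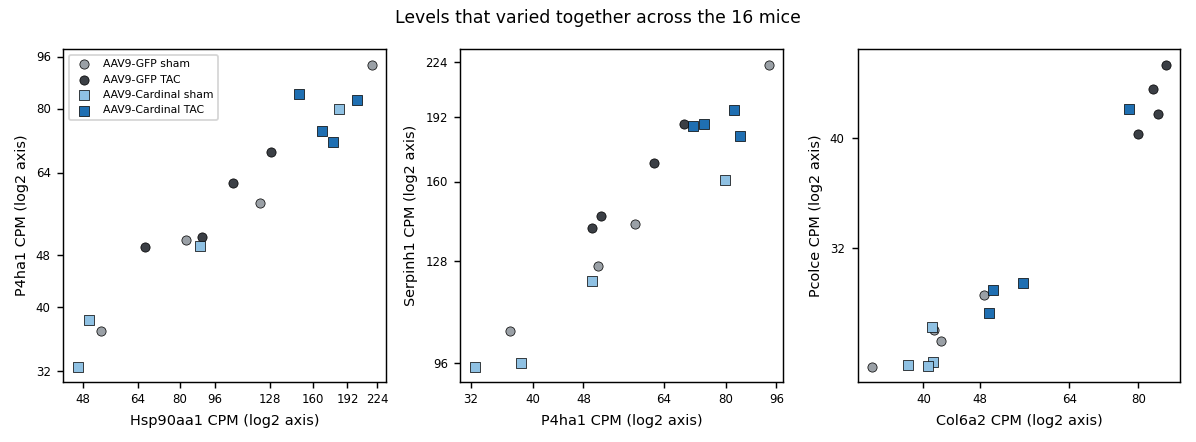
Levels in CPM on log2 axes in the 16 mice, by group: P4ha1 against Hsp90aa1 (left), Serpinh1 against P4ha1 (middle) and Pcolce against Col6a2 (right). Each point is a mouse. Sham hearts reach from the lowest to the highest values in the left and middle panels, whereas in the right panel the AAV9-GFP TAC hearts and 1 AAV9-Cardinal TAC heart lie above all others.

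The share of each isoenzyme in its family was computed from counts per kilobase of exon. P4ha1 made up 63.0 ± 5.29% of prolyl 4-hydroxylase subunit transcripts in AAV9-GFP sham, 66.8 ± 3.22% in AAV9-GFP TAC, 61.9 ± 4.44% in AAV9-Cardinal sham and 69.4 ± 2.73% in AAV9-Cardinal TAC hearts (SD, n = 4), and P4ha2 nearly all of the rest. The P4ha1 share was 7.53 points higher after TAC under Cardinal (exact permutation p = 0.057, two-sided, adjusted 0.46). P4ha3 reached at most 0.416% in a heart. Plod1 made up between 45.4% and 54.5% of lysyl hydroxylase transcripts in every heart. The share of Plod3 was 22.3, 20.8, 21.1 and 19.4% in AAV9-GFP sham hearts and 23.7, 28.0, 23.0 and 29.6% in AAV9-GFP TAC hearts, without overlap. The difference of 5.23 points had an exact permutation p of 0.029 (two-sided), the smallest that 4 against 4 mice allow, and an adjusted p of 0.46 over the 24 share comparisons. None of the 24 passed after adjustment, and the lowest adjusted p was 0.46. With 24 comparisons and this smallest p, an adjusted p under 0.05 could be reached only if most comparisons gave the smallest p, so the tests say nothing on whether shares were stable. Plod2's share went the opposite way, from 30.3 ± 3.13% to 25.2 ± 2.64% (exact permutation p = 0.086, adjusted 0.51).

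**Figure D4:**
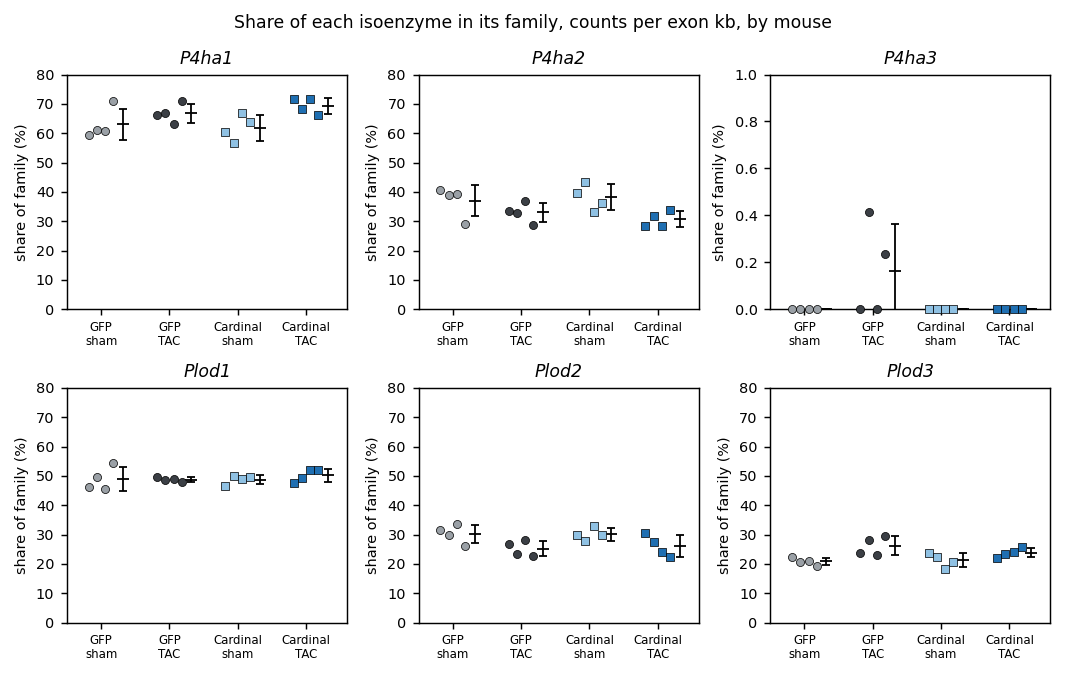
Share of each isoenzyme in its family (vertical axes, percent, from 0; the P4ha3 axis ends at 1%) in each mouse by group, computed from counts per kilobase of exon. Each point is a mouse and bars give the mean ± SD of 4 mice. The Plod3 share is higher in every AAV9-GFP TAC heart than in every AAV9-GFP sham heart.

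The number of collagen reads per enzyme read was higher after TAC under the GFP vector for each of the 4 enzymes plotted. The summed CPM of Col1a1, Col1a2 and Col3a1 was 3.10 ± 0.953 times that of P4ha1 in AAV9-GFP sham and 7.51 ± 1.63 times in AAV9-GFP TAC hearts. In AAV9-Cardinal hearts it was 3.72 ± 1.35 times in sham and 3.36 ± 1.46 times in TAC. Per Serpinh1 read it was 1.20 ± 0.305 and 2.69 ± 0.561 under GFP, and 1.47 ± 0.391 and 1.43 ± 0.757 under Cardinal. Per Pcolce read the values were 6.22 ± 0.398 and 9.82 ± 1.23 under GFP, and 6.42 ± 0.544 and 7.89 ± 2.06 under Cardinal. Per Plod2 read they were 4.71 ± 0.171 and 14.0 ± 3.28 under GFP, and 5.00 ± 1.04 and 7.78 ± 2.76 under Cardinal. For each tested member not plotted, the mean ratio was higher after TAC than after sham under GFP, and under Cardinal with all 4 TAC hearts. These ratios of reads are descriptions without a test and do not measure protein. AAV9-Cardinal TAC replicate 1 held the highest ratio of its group for each of these enzymes. Over the other 3 hearts of that group the ratio was 2.64 ± 0.290 for P4ha1, 1.05 ± 0.0828 for Serpinh1, 6.87 ± 0.368 for Pcolce and 6.52 ± 1.40 for Plod2 (SD, n = 3). For P4ha2 and Plod3 the means over these 3 hearts were 3.81 and 7.73, against 3.84 and 8.32 in AAV9-Cardinal sham hearts. For Plod1, Bmp1 and Pcolce2 they were 2.454, 6.42 and 19.7, against 2.446, 5.84 and 15.7 in AAV9-Cardinal sham hearts.

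**Figure D5:**
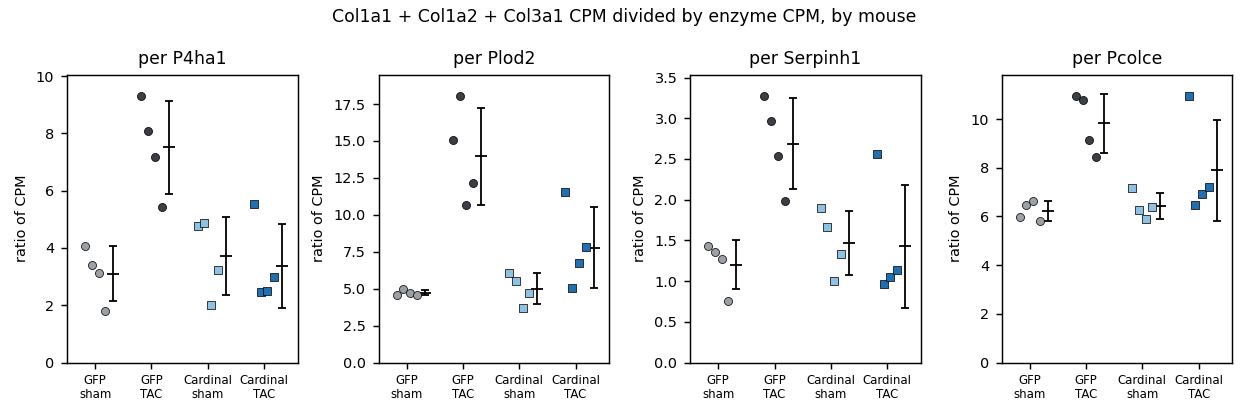
Summed CPM of Col1a1, Col1a2 and Col3a1 divided by the CPM of P4ha1, Plod2, Serpinh1 or Pcolce (vertical axes, ratio, from 0), by mouse and group, with the mean ± SD of 4 mice. The 4 AAV9-GFP TAC hearts lie above all sham hearts in each panel, and 1 AAV9-Cardinal TAC heart lies near or among them.

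Other genes of collagen modification, folding, export and propeptide removal were read from a list of 33, of which 30 were tested. Under the GFP vector 5 rose and 3 fell after TAC, and the median log2 fold change was 0.04. The largest rises were those of Adamts2, the procollagen N-proteinase (1.06, adjusted p = 0.00029), Sparc, a collagen-binding matricellular protein (1.02, adjusted p = 4.4e-05), and the prolyl 3-hydroxylase P3h2 (0.96, adjusted p = 0.00071). P3h1 and Ppib, named after their values were seen and known to work in 1 complex with Crtap, rose by 0.41 and 0.24. Crtap did not pass (log2 fold change −0.0024, adjusted p = 0.99). P3h4, a partner of lysyl hydroxylase complexes, fell by 0.65 (adjusted p = 0.00054), Pcsk6, a proprotein convertase, by 0.43 (adjusted p = 0.0026) and Mia2, a cargo receptor for export, by 0.41 (adjusted p = 0.0080), all on the log2 scale.

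Under the Cardinal vector 3 genes of the list rose, namely Sparc (0.72, adjusted p = 0.0031), P3h2 (0.72, adjusted p = 0.016) and Adamts2 (0.61, adjusted p = 0.031), and P3h4 fell by 0.44 (adjusted p = 0.022). Without AAV9-Cardinal TAC replicate 1, Sparc rose by 0.65 (adjusted p = 0.0059), P3h2 by 0.62 (adjusted p = 0.029) and Furin, a proprotein convertase, by 0.55 (adjusted p = 0.013), P3h4 fell by 0.43 (adjusted p = 0.033), and Adamts2 no longer passed (0.44, adjusted p = 0.053). Between the vectors edgeR called none of the 30 in TAC hearts (6 at an unadjusted p under 0.05 and 3 with DESeq2), none in sham hearts (1 and 0) and none for the difference in response (3 and 0). Without AAV9-Cardinal TAC replicate 1, edgeR called 3 of the 30 as lower under Cardinal in TAC hearts, Adamts2 (−0.69, adjusted p = 0.012), P3h1 (−0.33, adjusted p = 0.036) and P3h3 (−0.48, adjusted p = 0.047). In that fit 535 of all genes tested were called in either direction. Replicate 1 had been set apart partly by its high fibroblast markers, so these p-values are no separate support for a difference. Genes known to answer to hypoxia, 12 listed because several hydroxylases are known targets of HIF-1, were tested for 11. edgeR called none in any comparison. At an unadjusted p under 0.05 there was 1, Pgk1 after TAC under Cardinal (0.14, adjusted p = 0.087), and DESeq2 called 1 there and none elsewhere.

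Fibroblast markers moved with part of these results. Of 7 fibroblast markers 3 rose after TAC under GFP (Lum, Col1a1 and Mfap5) and 1 under Cardinal (Mfap5), and of 6 markers of activated fibroblasts, 5 tested, Postn and Cilp rose under both vectors. Without AAV9-Cardinal TAC replicate 1, Mfap5, Postn and Cilp again rose under Cardinal (adjusted p = 0.0058, 0.0049 and 0.0049), the endothelial marker Pecam1 rose (adjusted p = 0.027) and the macrophage marker Cd68 fell (adjusted p = 0.028). The summed activated markers were at 69.6 to 249 CPM in AAV9-GFP sham, 221 to 340 in AAV9-GFP TAC, 68.3 to 91.5 in AAV9-Cardinal sham and 97.3 to 205 in AAV9-Cardinal TAC hearts. The highest AAV9-GFP sham value came from replicate 4, and the other 3 hearts of that group were at 69.6 to 80.2 CPM. In that group Acta2, also a smooth muscle gene, was at 88.1 ± 87.5 CPM. Postn was at 23.0 ± 0.768 and Cilp at 2.86 ± 0.363 CPM (SD, n = 4). The 7 fibroblast markers summed to 425 CPM in replicate 4, the lowest value of its group. The defining marker Cthrc1 was at 0 counts in 10 of 16 hearts. Of 6 cardiomyocyte markers 4 fell after TAC under GFP (Myh6, Tnnt2, Tnni3 and Ryr2) and none passed under Cardinal. Of 5 endothelial markers 1 rose under GFP (Cdh5), of 5 smooth muscle and pericyte markers 1 rose under GFP (Cspg4), and none of these passed under Cardinal. By edgeR none of 6 macrophage markers passed under either vector (1 at an unadjusted p under 0.05 under GFP and 0 under Cardinal, and 0 with DESeq2 in both). The part of cell composition in the rise of Pcolce, Bmp1 and Plod3 was not tested.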

How the data were processed

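RNA was poly(A)-selected from the heart apex of 16 mice and sequenced as single-end 50-base reads. The authors deposited raw read counts per gene, and 0 columns of per-sample values were left unused. The submitters' processing notes name FastQC, HISAT2 2.1.0, edgeR 3.26.1 and the build GRCm38, with no role or order. The counter, its annotation, and the use of strand and of multiply mapped reads are not given in the sources used here. Gene names came from GENCODE M21 (GRCm38) for 55394 of 55573 identifiers, and promoters from RefSeq (GRCm38.p6).

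Counts as deposited were tested with the quasi-likelihood F-test of edgeR 4.0.16 (R 4.3.3, limma 3.58.1), with TMM scaling, the filterByExpr filter (16857 genes kept), group as the single factor, all 16 mice in the fit and Benjamini-Hochberg adjustment over all genes tested at 0.05. The scripts were first tested on simulated data. CPM used TMM library sizes, correlations used log2 CPM with a prior count of 2, and SE is the log2 fold change divided by the root of F. Libraries held 16441997 to 21904589 counts, and the common coefficient of variation between mice was 12.8%. Shares within families were compared by exact permutation tests (70 labelings, smallest two-sided p 0.029) in scipy 1.17.1 and Python 3.11.15. Alternatives were DESeq2 1.42.0, RLE scaling, no filter on low counts, a robust spread, only the 8 mice compared, the replicate number as a block, each mouse left out, and shares of raw counts. Leaving AAV9-Cardinal TAC replicate 1 out for genes other than the members and for collagen reads per enzyme read was chosen after seeing the data. For the members it was 1 of the fits with each mouse left out, and giving its values beside the results was chosen after seeing the data.

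All members are named. From the list of other collagen-modifying genes, the 3 that rose and the 3 that fell most among those past the test are named in each comparison, and for each member the 2 genes with the highest correlation. The members and lists were chosen with earlier results of these data known.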

Additional observations from a re-analysis of the deposited data

Results flagged for a closer look

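In 58 groups of 4 mice, a level or share was examined for 1 mouse lying far from the other 3 of its group, by the gap to the nearest other mouse as a share of the range (Dixon's test at the 95% level), which chance gives in about 1 of 20 groups. It was found 5 times. In AAV9-Cardinal TAC replicate 1 the Pcolce level was 42.5 CPM, against 28.1 to 29.8 CPM in the other 3 hearts. Pcolce was at 27.3 CPM in AAV9-Cardinal sham replicate 3, where the others were at 25.2 to 25.4 CPM. Bmp1 was at 40.4 CPM in AAV9-GFP TAC replicate 3, where the others were at 36.0 to 36.6 CPM. In AAV9-GFP sham replicate 4 the share of P4ha1 was 70.8% against 59.3 to 61.0% in the other 3 hearts, and that of P4ha2, which mirrors it, was 29.2% against 39.0 to 40.7%.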

How the results depend on the processing

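Of the members' log2 fold changes, 246 kept direction and side of the threshold over the 6 alternatives other than leaving out single mice, 6 came past the threshold, 4 lost it and 5 changed sign. For TAC under Cardinal, the number of members past the test was 3 with DESeq2, 0 without the filter on low counts, 2 with only the 8 mice compared and 0 with the replicate block, and the number of genes was 615 without the filter and 31 with the block. For Cardinal against GFP in TAC hearts, 2 members and 447 genes passed with DESeq2, and 3 genes without the filter, 3 with only the 8 mice and 0 with the block. For Cardinal against GFP in sham hearts, 5 genes passed with DESeq2 and 1 with the block, and for the difference in response 145 and 1. The cause was not tested.

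Same-numbered mice of different groups had correlations of −0.0404 to 0.211 (median 0.0544), so the numbers were not taken as pairs. With the replicate block, 2 members passed for TAC under GFP and 2091 genes. The log2 fold changes that changed sign under the block were Plod1 (−0.0095) and Serpinh1 (−0.028) for TAC under GFP, Plod2 for TAC under Cardinal (0.18), and Plod3 for Cardinal against GFP in TAC hearts (0.049) and for the difference in response (0.10). With shares of raw counts, the Plod1 difference for TAC under GFP was 0.297 points in place of −0.170.

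When single mice were left out, the members past the test numbered 3 to 4 for TAC under GFP, 0 to 2 under Cardinal, 0 to 1 between vectors in TAC hearts, 0 in sham hearts and 0 to 1 for the difference. Genes numbered 1962 to 3072, 384 to 1436, 0 to 535, 1 to 3 and 2 to 79. The upper ends 3072, 1436, 535 and 79 were reached without AAV9-Cardinal TAC replicate 1. Ranges that crossed 0 were, for TAC under GFP, P4ha1 −0.22 to 0.26, Plod1 −0.048 to 0.19 and Serpinh1 −0.025 to 0.37. For TAC under Cardinal they were Plod2 −0.12 to 0.12 and Pcolce2 −0.058 to 0.25. Between vectors they were Plod3 in TAC hearts −0.15 to 0.046, and in sham hearts P4ha1 −0.58 to 0.048, Plod1 −0.18 to 0.066, Plod2 −0.21 to 0.010 and Pcolce2 −0.036 to 0.093, and for the difference Plod3 −0.10 to 0.10. Share differences crossing 0 were, in sham hearts between vectors, P4ha1 −2.73 to 1.51, P4ha2 −1.51 to 2.73, Plod1 −1.33 to 1.69, Plod2 −1.60 to 0.859 and Plod3 −0.388 to 1.39 points, Plod1 for TAC under GFP −1.33 to 1.70 and Plod2 between vectors in TAC hearts −0.633 to 2.12 points. Depth limits P4ha3, where 0 counts allow up to 0.195 CPM in the smallest library.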
